A study of Canis lupus familiaris with 34 samples.

Results

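Osteoblasts, the cells that build bone, arise from mesenchymal precursors under a cascade of transcription factors, in which the homeobox proteins DLX5 and MSX2 act around RUNX2, and SP7 acts downstream of it. The mature cells deposit a collagen matrix, load it with the phosphoproteins IBSP and SPP1 and the vitamin K dependent protein BGLAP (osteocalcin), and mineralize it with the help of the phosphatase ALPL, while PHEX, a membrane endopeptidase, takes part in phosphate balance. Osteosarcoma is a malignant tumor whose cells produce bone matrix, and these genes are among those used to describe how far such cells have gone along the osteoblast path.

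The 9 genes RUNX2, SP7, ALPL, BGLAP, IBSP, SPP1, DLX5, MSX2 and PHEX were followed across all 34 arrays of the series, through the probe sets of the Affymetrix Canine_2 array that the platform annotation assigns to exactly 1 gene symbol. Of the 9, 8 had such a probe set and SP7 was not analysed here. The 8 genes were represented by 17 of the 29254 probe sets with 1 symbol (5 for RUNX2, 1 each for IBSP and DLX5 and 2 for each of the other genes), and among 15115 genes so named. Each gene was described by its probe set with the highest mean over the arrays, and its other probe sets were read beside it. The genes were listed as a group with earlier results of these arrays known.

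The arrays carried cells from 8 kinds of lesion of dogs, 1 array per line, culture or patient, with no treatment. Cultured cells were 5 osteosarcoma lines of bone origin from golden retrievers (OSCA20, OSCA23, OSCA59, OSCA75 and OSCA71), 10 hemangiosarcoma lines of spleen origin and 3 cultures from splenic hematoma, a benign blood-filled lesion. Of the hemangiosarcoma lines, 6 came from golden retrievers (ChadG4, ChadG6, ChadG8, Frog, Journey and Tucker) and 4 from a Rottweiler (Joey), a golden retriever crossed with a Great Pyrenees (DD1), a Portuguese Water Dog (ChadP9) and a Dalmation (Dal4). The hematomas came from a golden retriever (Pippin), a standard poodle (Baxter) and a keeshond (Kylie). Cultured cells came from frozen stocks of the lowest passages to hand. Primary cells were 1 acute lymphoblastic leukemia (Rascal, a golden retriever mix), 2 chronic lymphocytic leukemias (Maddle and Forrest), 6 diffuse large B cell lymphomas, 1 marginal zone lymphoma (Bitsy) and 6 T-zone lymphomas, all but Rascal from golden retrievers. Each replicate was thus a line or a dog. Values are log2 RMA levels, on which a step of 1 is a 2-fold difference, and the median of an array lay between 5.57 and 5.77.

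Members of the list did not share 1 pattern across the tumor types. DLX5 and MSX2 had their highest means in the osteosarcoma lines, PHEX stood high in the B cell lymphomas, SPP1 was spread over several log2 units within hemangiosarcoma and within diffuse large B cell lymphoma, and IBSP lay below its array's median on all 34 arrays. Within the osteosarcoma lines, DLX5 and MSX2 exceeded the array median on 5 of 5 arrays, BGLAP on 3, ALPL on 2 and PHEX on 1. RUNX2, IBSP and SPP1 did so on 0 of 5. Since probe sets differ in brightness, a level below the array median does not show that a gene is silent.

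**Figure D1:**
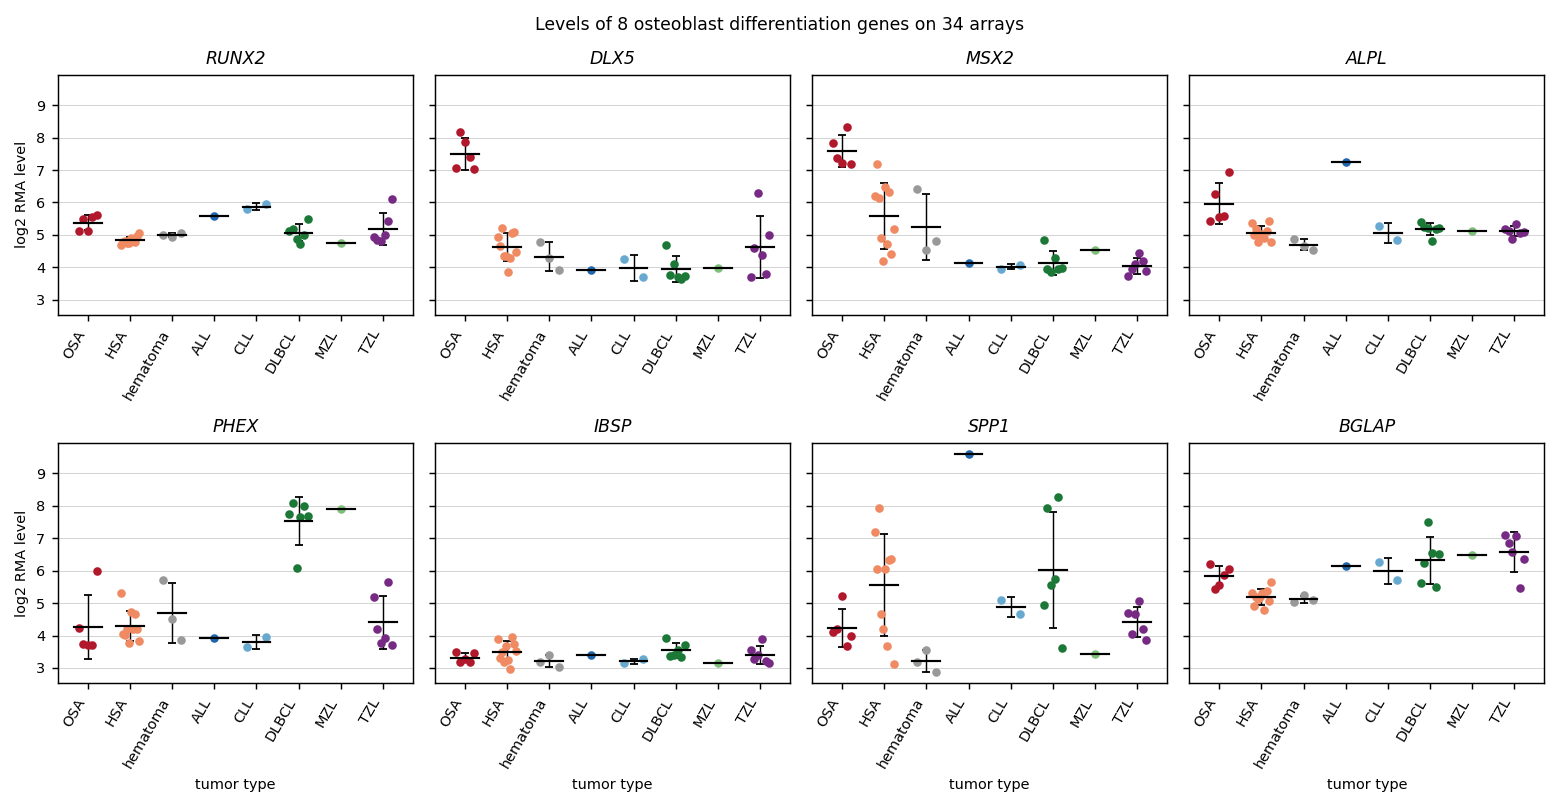
Log2 RMA level (vertical axis) of each of the 8 genes on every array, by tumor type (OSA and HSA stand for the 2 sarcomas, ALL and CLL for acute and chronic leukemia, and DLBCL, MZL and TZL for large B cell, marginal zone and T-zone lymphoma). Points are arrays, horizontal lines are group means and bars are SD where a group has more than 1 array; DLX5 separates the 5 osteosarcoma lines, all at 7.03 or above, from the other 29 arrays, and PHEX stands high in DLBCL and MZL.

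Among the transcription factors, DLX5, a homeobox activator of bone formation, set the osteosarcoma lines apart most clearly. Its log2 level was 7.07 in OSCA20, 8.16 in OSCA23, 7.86 in OSCA59, 7.39 in OSCA75 and 7.03 in OSCA71. In the 10 hemangiosarcoma lines it ran from 3.84 (Tucker) through a median of 4.57 to 5.20 (ChadG8). Every osteosarcoma line thus lay above every hemangiosarcoma line. The 3 hematoma cultures stood at 4.29 (Baxter), 3.90 (Kylie) and 4.79 (Pippin). Across the 16 leukemias and lymphomas the lowest was 3.65, the median 3.95 and the highest 6.29, in the T-zone lymphoma Rose. Rose was the only array outside osteosarcoma on which DLX5 exceeded its array's median, and it still lay below every osteosarcoma line. In the order of group means osteosarcoma came first (7.50 ± 0.49, SD, n = 5), and the ranges of all neighboring groups below it overlapped.

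MSX2, a homeobox factor of the skull and limb skeleton, was highest in the same lines but varied more outside them. Its level was 7.84 in OSCA20, 7.36 in OSCA23, 7.21 in OSCA59, 8.33 in OSCA75 and 7.20 in OSCA71. The hemangiosarcoma lines ran from 4.19 (Journey) through a median of 5.66 to 7.18 (ChadG6). The highest of them thus came close to the lowest osteosarcoma line without passing it. Hematoma cultures read 4.52 (Baxter), 4.82 (Kylie) and 6.40 (Pippin). In the 16 leukemias and lymphomas MSX2 stayed between 3.73 and 4.85, with a median of 4.03, below its array's median on all of them. The other MSX2 probe set followed the first with a Pearson r of 0.76 over the 34 arrays, but its osteosarcoma values, from 4.70 to 5.91, overlapped the hemangiosarcoma range of 4.23 to 5.23.

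RUNX2, the factor that commits precursors to the osteoblast lineage, was low in the osteosarcoma lines relative to each array's median, at 5.12 in OSCA20, 5.49 in OSCA23, 5.13 in OSCA59, 5.54 in OSCA75 and 5.62 in OSCA71. Its highest group mean was in chronic lymphocytic leukemia, with 5.81 in Maddle and 5.94 in Forrest. The single highest array was the T-zone lymphoma Fire at 6.11. The 10 hemangiosarcoma lines lay between 4.70 and 5.07 with a median of 4.79, and the 3 hematomas between 4.95 (Baxter) and 5.05 (Kylie). All 5 osteosarcoma lines lay above both of these groups on this probe set. The 4 other RUNX2 probe sets followed it with r between -0.25 and 0.64 over the 34 arrays. The best of them also had chronic lymphocytic leukemia highest, at 5.96 in Forrest and 5.62 in Maddle, and read up to 6.09 in the T-zone lymphomas.

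ALPL, the tissue-nonspecific alkaline phosphatase that frees phosphate for mineral, was 5.43 in OSCA20, 6.25 in OSCA23, 5.56 in OSCA59, 5.60 in OSCA75 and 6.93 in OSCA71. The hemangiosarcoma lines ran from 4.77 to 5.42 with a median of 5.01, and the hematomas from 4.55 to 4.88. All 5 osteosarcoma lines lay above both groups, but OSCA20 only just exceeded the highest hemangiosarcoma line, ChadP9. The highest ALPL level of the series was in the acute lymphoblastic leukemia Rascal, at 7.24, whereas the other 15 lymphoid arrays did not pass 5.40. The second ALPL probe set did not repeat the Rascal value (5.09) and correlated with the first at r = 0.32, and on it OSCA59, OSCA71 and OSCA23 (5.47, 5.46 and 5.34) were the highest osteosarcoma lines. There the osteosarcoma lines, from 4.66 to 5.47, overlapped the hemangiosarcoma lines (4.29 to 5.13) and the hematomas (4.74 to 4.84). The highest array on that probe set was a diffuse large B cell lymphoma at 6.34.

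PHEX, which degrades mineralization-inhibiting peptides in osteocytes and osteoblasts, was near the low end of the scale in 4 of the 5 osteosarcoma lines. It read 4.23 in OSCA20, 3.75 in OSCA23, 3.70 in OSCA59, 3.70 in OSCA75 and 5.98 in OSCA71. OSCA71 stood alone above the other 4 lines. Hemangiosarcoma lines ran from 3.78 to 5.31 with a median of 4.19, and hematomas read 4.50 (Baxter), 3.87 (Kylie) and 5.71 (Pippin). Leukemias lay between 3.66 and 3.95. The diffuse large B cell lymphomas ran from 6.08 (Sally) through a median of 7.71 to 8.09 (Cooper), the marginal zone lymphoma read 7.89, and the T-zone lymphomas ran from 3.72 (Fire) through 4.05 to 5.64 (Thunder). All 7 B cell lymphomas lay above the other 27 arrays. The second PHEX probe set followed the first with r = 0.96 over 34 arrays. It ran from 4.71 to 6.91 in diffuse large B cell lymphoma and from 3.04 to 4.76 in T-zone lymphoma, so that the ranges met there, and OSCA71 (4.60) was again the highest osteosarcoma line.

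Of the matrix proteins, IBSP, a phosphoprotein that nucleates mineral, showed no group at a raised level. It lay between 2.96 and 3.96 on the 34 arrays, and the osteosarcoma lines read 3.50 (OSCA20), 3.19 (OSCA23), 3.29 (OSCA59), 3.17 (OSCA75) and 3.45 (OSCA71). With a single probe set, these values do not tell a silent gene from a probe set that responds poorly.

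SPP1 (osteopontin), a secreted phosphoprotein made by osteoblasts, macrophages and many tumors, is a neighbor of IBSP in the dog genome but behaved differently. The osteosarcoma lines read 4.11 in OSCA20, 4.20 in OSCA23, 5.23 in OSCA59, 3.68 in OSCA75 and 3.98 in OSCA71. Hemangiosarcoma lines ran from 3.12 (Dal4) through a median of 6.05 to 7.93 (ChadG8), and 6 of 10 exceeded their array's median. The hematomas were lower, at 3.57 (Baxter), 2.87 (Kylie) and 3.19 (Pippin). Only 1 of the 10 hemangiosarcoma lines, Dal4, fell within the hematoma range. Diffuse large B cell lymphomas spanned 3.62 (Chieftain) to 8.26 (Snuggles) around a median of 5.65, and T-zone lymphomas 3.85 to 5.08. Rascal had the highest level of all, 9.61. The other SPP1 probe set agreed closely (r = 0.96), with Rascal (7.12), Snuggles (6.15), ChadG8 (5.79), Cooper (5.24) and ChadG4 (4.95) as its 5 highest arrays.

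BGLAP, the late osteoblast product osteocalcin, had its 5 highest group means in the 5 kinds of leukemia and lymphoma. The osteosarcoma lines read 6.22 in OSCA20, 5.45 in OSCA23, 5.56 in OSCA59, 5.86 in OSCA75 and 6.04 in OSCA71. The hemangiosarcoma lines ran from 4.77 to 5.66 with a median of 5.19, and the hematomas from 5.03 to 5.24. In the 16 leukemias and lymphomas BGLAP lay between 5.48 and 7.50 around a median of 6.43, and 13 exceeded their array's median. The osteosarcoma range overlapped both of the larger groups, although all 5 lines lay above all 6 golden retriever hemangiosarcoma lines, which ended at 5.32. The second BGLAP probe set (r = 0.92) put the groups in like order, with a mean of 3.58 in osteosarcoma (SD 0.45), 3.12 in the 10 hemangiosarcoma lines (SD 0.15) and 4.13 in the 16 lymphoid tumors (SD 0.62).

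The differences between groups were tested with limma, fitted over all probe sets that passed a level filter, with Benjamini-Hochberg adjustment over all of them. To pass, a probe set had to exceed the median of its array on a number of arrays no smaller than the smaller group. A gene that passes this filter only through the group in which it is high was selected for a difference in that direction, so members that passed are not counted as a sample of the list. The comparisons of osteosarcoma with 3 other groups share the same 5 osteosarcoma arrays and are not independent of each other. Since these are bulk RNA values, a lower share of cells that make a transcript and less transcript per cell cannot be told apart.

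The comparison of osteosarcoma with hemangiosarcoma was made within golden retrievers, to hold breed constant, and asked which genes part 2 kinds of cultured sarcoma cell. DLX5 was 2.95 log2 units higher in the 5 osteosarcoma lines than in the 6 hemangiosarcoma lines (SE 0.28, 7.72-fold, limma adjusted p = 1.13e-04), and MSX2 was 1.74 units higher (SE 0.48, 3.34-fold, limma adjusted p = 0.0292). Over all 22128 probe sets tested, 6.89% were called higher and 9.46% lower. DLX5 entered through the osteosarcoma arrays alone, since it lay below the array median in all 6 hemangiosarcoma lines, and the number of members called is therefore not read against that share. The other 6 members were below the filter, and in the fit without it DLX5 (adjusted p = 2.78e-04) and MSX2 (adjusted p = 0.0424) also passed in limma. Fitted in the same way, BGLAP (+0.64, SE 0.15, adjusted p = 0.0215), RUNX2 (+0.60, SE 0.11, adjusted p = 0.0104) and ALPL (+0.90, SE 0.25, adjusted p = 0.0435) also passed 0.05 in limma, against 5.05% of 42860 probe sets called higher. With all 10 hemangiosarcoma lines and no filter, the same 5 members (RUNX2, ALPL, BGLAP, DLX5 and MSX2) passed, against 10.4% of probe sets called higher. By their main probe sets, the ranges of the 2 groups did not overlap for 5 of the 8 members (RUNX2, ALPL, BGLAP, DLX5 and MSX2), all with osteosarcoma above. Among the probe sets that passed the filter the share was 3.81%. RUNX2, ALPL and BGLAP were below the filter, so the count of 5 is not set against that share. The remaining values were -1.77 for SPP1 (SE 0.61, limma adjusted p = 0.0881 without the filter), -0.15 for IBSP and -0.07 for PHEX. The median difference over the 8 members was +0.62. It was -0.01 over all probe sets tested, a set that leaves out the 6 members below the filter.

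The other probe sets bore out some of these values and not others. For RUNX2 they gave differences from -0.24 to +0.59, with 3 of 4 below 0, so its direction depends on the probe set. The second probe sets of ALPL (+0.49, SE 0.18), BGLAP (+0.42, SE 0.18), MSX2 (+0.43, SE 0.25) and SPP1 (-1.13, SE 0.51) had the sign of the first, but none passed 0.05 in the fit without a filter. On every other probe set of RUNX2, ALPL, BGLAP and MSX2 the ranges of the groups overlapped. The MSX2 call also ended in limma when Frog (adjusted p = 0.0641), OSCA23 (adjusted p = 0.0523) or OSCA75 (adjusted p = 0.0708) was left out, whereas DLX5 stayed between +2.79 and +3.08 over the 11 ways of leaving out an array. The hybridization control probe sets, spiked into every sample at set amounts, averaged 9.66 to 10.57 on the osteosarcoma arrays and 9.18 to 9.54 on the golden retriever hemangiosarcoma arrays, and their part in these differences was not tested.

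**Figure D2:**
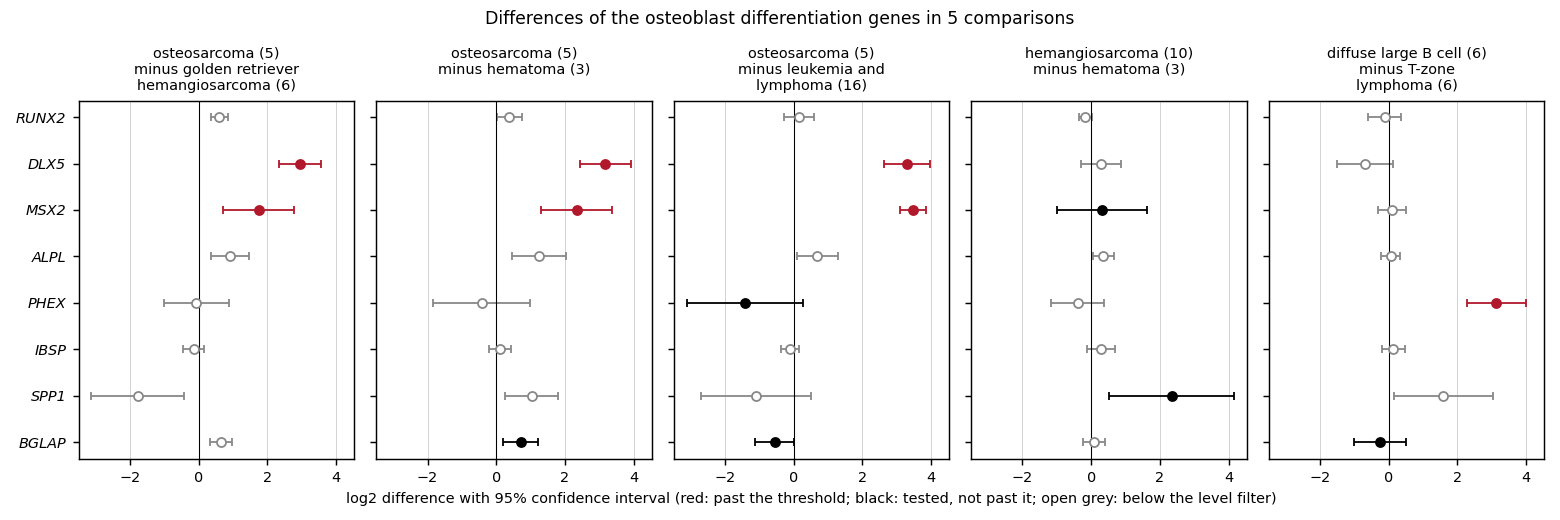
Difference in log2 level of each gene's main probe set (horizontal axis) with its 95% confidence interval from limma, not adjusted for the number of genes, in 5 comparisons; numbers in brackets are arrays. Red points passed the comparison's threshold after adjustment over all probe sets, black points were tested and did not, and open grey points were below the level filter; DLX5 and MSX2 are red in all 3 osteosarcoma comparisons and PHEX in the lymphoma comparison.

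**Figure D3:**
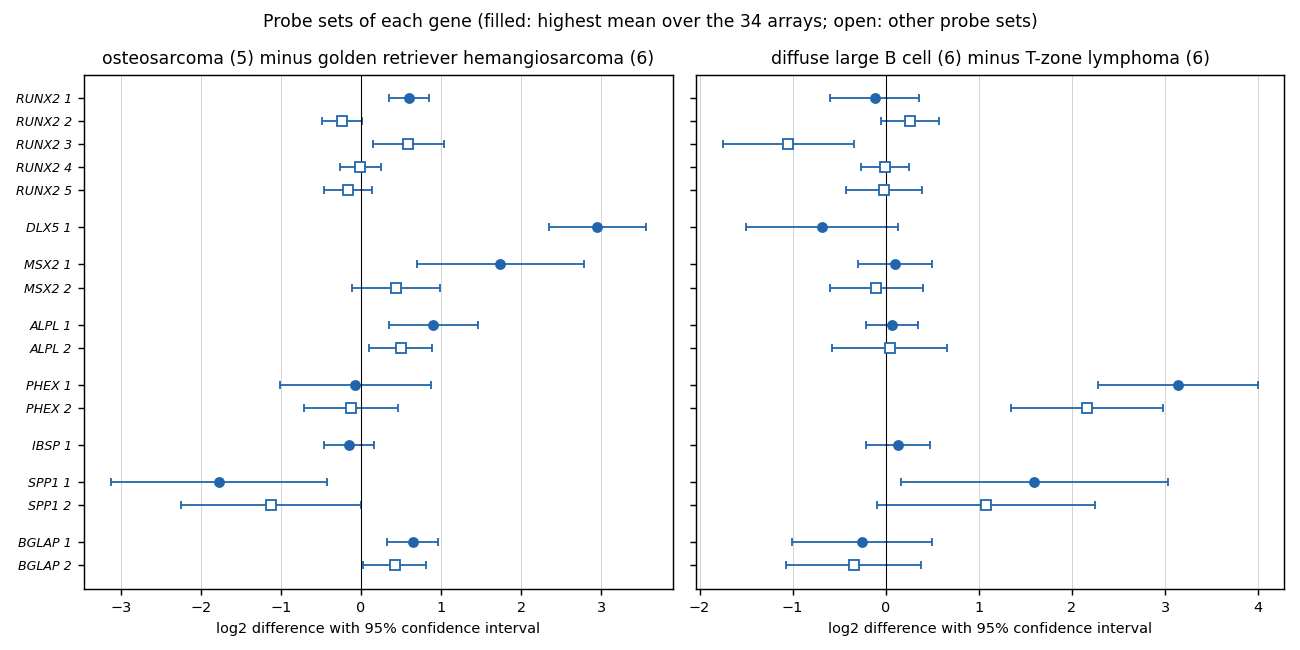
Difference in log2 level (horizontal axis) with its 95% confidence interval for each of the 17 probe sets, numbered within the gene (filled circles, the highest mean over the 34 arrays; open squares, other probe sets), between osteosarcoma and golden retriever hemangiosarcoma lines (left) and between diffuse large B cell and T-zone lymphoma (right). Both PHEX probe sets lie to the right of 0 in the lymphoma panel, whereas the 5 RUNX2 probe sets fall on both sides of 0 in the osteosarcoma panel.

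Against the 3 splenic hematoma cultures, which are not malignant, the same 2 homeobox genes were higher in osteosarcoma. DLX5 differed by +3.18 (SE 0.33, 9.03-fold, limma adjusted p = 0.00609) and MSX2 by +2.34 (SE 0.46, 5.06-fold, limma adjusted p = 0.0339), where 1.65% of 23062 probe sets were called higher and 3.1% lower. DLX5 exceeded the array median on 0 of 3 hematoma arrays and MSX2 on 1, so both entered the test through the osteosarcoma arrays. Their number is therefore not read against that share. Without the filter, DLX5 (limma adjusted p = 0.0107) and MSX2 (adjusted p = 0.0467) also passed. The second MSX2 probe set gave +0.74 (SE 0.33), with overlapping ranges, and did not pass without the filter (limma adjusted p = 0.225). BGLAP was also tested and did not pass (+0.71, SE 0.23, limma adjusted p = 0.0989). Below the filter, ALPL differed by +1.26 (95% interval 0.47 to 2.04), SPP1 by +1.03 (0.25 to 1.81), RUNX2 by +0.38 (0.02 to 0.74), IBSP by +0.10 (-0.22 to 0.43) and PHEX by -0.42 (-1.83 to 0.99), and none of these passed without the filter, where 0.789% of probe sets were called higher. By their main probe sets, the groups did not overlap for 6 of the 8 members, all higher in osteosarcoma. Among the probe sets that passed the filter the share with osteosarcoma above was 9.7%. ALPL, SPP1 and RUNX2, among the 6, were below the filter, so the count is not set against that share. On the second probe sets of ALPL (+0.39) and BGLAP (+0.38) and the other RUNX2 probe sets (-0.34 to +0.35) the ranges overlapped. The second SPP1 probe set (+0.46) kept them apart. The MSX2 call was lost on leaving out Baxter (+1.98, limma adjusted p = 0.112), Kylie (+2.13, adjusted p = 0.136), OSCA23 (adjusted p = 0.0714), OSCA59 (adjusted p = 0.0691) or OSCA75 (adjusted p = 0.0687), and the DLX5 call in none of the 8 such fits. The difference between 3′ and 5′ probe sets of actin, a sign of RNA integrity, was 1.80 to 3.27 log2 units on the osteosarcoma arrays and 0.36 to 1.74 on the hematoma arrays for 1 pair. A second pair gave 0.40 to 1.85 against -1.01 to 0.22, also without overlap, and the remaining pair gave -0.69 to 0.18 against -0.70 to -0.20, and the part of this difference in the comparison was not tested.

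Hemangiosarcoma and hematoma cultures, the comparison at the center of the study, were read at an adjusted p of 0.1, and no member passed. SPP1 was 2.35 log2 units higher in the 10 hemangiosarcoma lines (SE 0.85, 5.08-fold, limma adjusted p = 0.415), with 9 of 10 lines above all 3 hematomas. MSX2 differed by +0.33 (SE 0.61, limma adjusted p = 0.876). No member had ranges that did not overlap. The share was 1.55% of the probe sets tested, which leave out the 6 members below the filter. In this comparison 0.266% of 23292 probe sets, 62 in all, were called, and 2259 had an unadjusted p under 0.05. The 6 members below the filter differed by amounts from -0.39 (PHEX) to +0.35 (ALPL).

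Against the 16 leukemias and lymphomas, at an adjusted p of 0.001, MSX2 was 3.47 units higher in osteosarcoma (SE 0.18, 11.1-fold, limma adjusted p = 7.53e-13) and DLX5 3.30 units higher (SE 0.32, 9.84-fold, limma adjusted p = 2.48e-08), where 10.1% of 24955 probe sets were called higher. MSX2 exceeded the array median on 0 of 16 lymphoid arrays and DLX5 on 1, so both entered the test through the osteosarcoma arrays and their number is not read against that share. Without the filter, MSX2 (limma adjusted p = 8.45e-13) and DLX5 (adjusted p = 4.71e-08) also passed. The second MSX2 probe set gave +0.89 (SE 0.23), with overlapping ranges, and did not pass 0.001 without the filter (limma adjusted p = 0.00558). MSX2 and DLX5, by their main probe sets, were also the 2 members whose groups did not overlap, as for 6.78% of the probe sets tested in the same direction. BGLAP (-0.55, SE 0.27, limma adjusted p = 0.113) and PHEX (-1.42, SE 0.82, limma adjusted p = 0.169) were tested and did not pass. Of the members below the filter, ALPL gave +0.69, RUNX2 +0.15, IBSP -0.10 and SPP1 -1.09. Culture and tumor type cannot be told apart here, since all osteosarcoma cells were cultured and all lymphoid cells were primary. The mean level of 13 leukocyte and lymphoid markers was 4.81 to 5.02 on the osteosarcoma arrays and 8.28 to 10.54 on the lymphoid arrays, and 8 of the 13 lay below the median on all 5 osteosarcoma arrays.

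Within the lymphomas, PHEX was 3.13 log2 units higher in the 6 diffuse large B cell tumors than in the 6 T-zone tumors (SE 0.40, 8.78-fold, limma adjusted p = 1.69e-04), with 9.14% of 21763 probe sets called higher and 9.32% lower. PHEX exceeded the array median on 6 of 6 diffuse large B cell arrays and on 1 of 6 T-zone arrays. It thus entered the test through the group in which it was high, and its call is not read against that share. It was the 1 member whose ranges did not overlap, as for 3.49% of the probe sets tested in the same direction. The second PHEX probe set differed by +2.16 (SE 0.38) and passed in limma without the filter (adjusted p = 0.00316), where 4.54% of probe sets were called higher. The difference stayed between +3.00 and +3.43 when each of the 12 arrays was left out in turn. The first actin 3′ to 5′ pair gave 0.67 to 3.46 on the diffuse large B cell arrays. On the T-zone arrays it gave 4.03 in Thunder, 3.30 in Fire and -0.30 to -0.05 in the others. The ranges of the 2 groups overlapped for every pair, and the part of RNA integrity in this comparison was not tested. BGLAP differed by -0.25 (SE 0.35, limma adjusted p = 0.704). SPP1, below the filter, was +1.59 (95% interval 0.16 to 3.03) and DLX5 -0.68 (-1.50 to 0.13). Between these groups 7 of 12 tested leukocyte and lymphoid markers were lower in the B cell tumors, led by the T cell genes LCK (-4.25) and CD7 (-4.05). Another 1 was higher and 4 did not pass. Markers of both lineages were high in both groups. Means in diffuse large B cell and T-zone tumors were 8.98 and 8.83 for CD79A, 11.82 and 9.67 for MS4A1, and 11.85 and 12.91 for CD3D.

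The spread among the 5 osteosarcoma lines differed between members. PHEX had the largest SD, 0.98, at the 94.2 percentile of all probe sets in these lines, followed by ALPL at 0.63 (83.2 percentile) and SPP1 at 0.59 (80.3 percentile). DLX5 and MSX2, the members that stood apart from other tumors, had an SD of 0.49 each, at the 73.5 and 73.3 percentiles. BGLAP (0.32), RUNX2 (0.24) and IBSP (0.15) were nearer to or below the median SD of all probe sets, 0.30. No line was highest throughout. OSCA71 was highest for RUNX2, ALPL and PHEX and lowest for DLX5 and MSX2. OSCA23 was highest for DLX5, OSCA75 for MSX2, OSCA59 for SPP1 and OSCA20 for BGLAP and IBSP. With 5 lines, no correlation between members was computed.

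**Figure D4:**
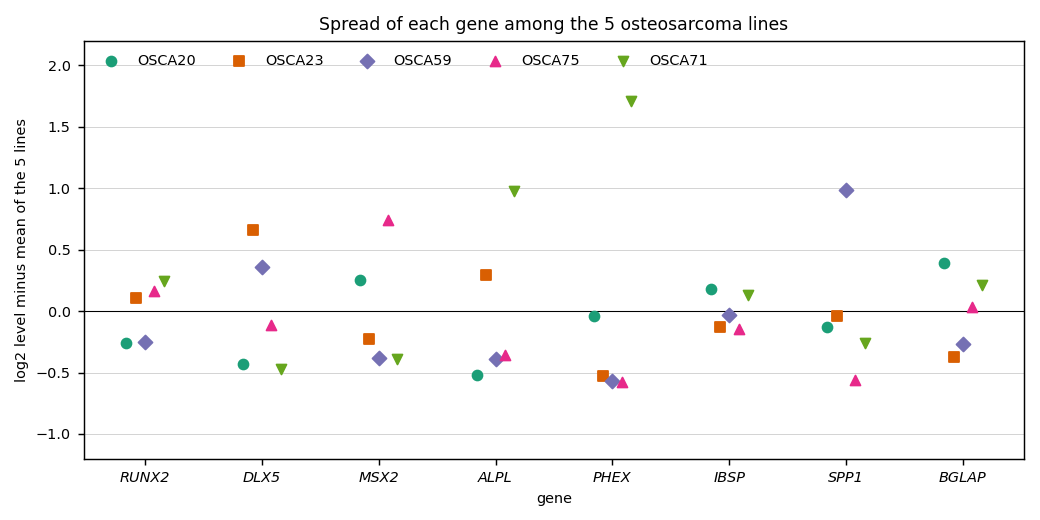
Log2 level of each gene in each of the 5 osteosarcoma lines minus the mean of the 5 lines (vertical axis); each marker is 1 line. OSCA71 lies 1.71 above the mean for PHEX and 0.98 above it for ALPL, OSCA59 0.99 above it for SPP1, and all lines stay within 0.26 of the mean for RUNX2.

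Some members varied more within other groups than within osteosarcoma. SPP1 had an SD of 1.56 among the 10 hemangiosarcoma lines (99.0 percentile) and 1.79 among the 6 diffuse large B cell lymphomas (99.6 percentile). MSX2 had an SD of 1.01 in hemangiosarcoma (96.6 percentile). DLX5 had an SD of 0.95 in T-zone lymphoma (95 percentile), where Rose at 6.29 and Fire at 4.99 were highest. RUNX2 by contrast varied little in hemangiosarcoma, with an SD of 0.11 (6.09 percentile). It exceeded the array median on 0 of these 10 arrays, so a small SD there does not show steady expression.

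The wider programs around the members were read in lists of related genes, first between osteosarcoma and golden retriever hemangiosarcoma. Their counts in this comparison stand beside 6.89% of all probe sets called higher and 9.46% called lower. Some called genes entered the test only through the group in which they were high, and were selected for that difference. OMD and HAPLN1 did not pass 4.40 and 4.96 in these hemangiosarcoma lines, nor SOX5 5.08 in the osteosarcoma lines. The array medians there were 5.62 or above, so the counts are not read as a result about the lists. Of 15 other osteoblast regulators, 14 had a probe set and 7 were tested. Of these, 2 were higher, TWIST1 (+1.45, SE 0.39, limma adjusted p = 0.0275), a factor that restrains RUNX2, and ZNF521 (+0.99, SE 0.31, adjusted p = 0.0455), a zinc finger protein that does so too, and 5 did not pass. Of the 15 bone matrix genes with a probe set, all 15 were tested and 2 were higher, both small leucine-rich proteoglycans: OMD, which is found in bone matrix (+4.04, SE 0.68, adjusted p = 0.00369), and OGN (+1.94, SE 0.58, adjusted p = 0.0412). OMD was uneven across the lines, at 9.30 in OSCA20, 5.75 in OSCA23, 10.31 in OSCA59, 8.37 in OSCA75 and 6.59 in OSCA71. The other 13 matrix genes did not pass, and the list median was -0.09.

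Among genes of mineralization and the osteocyte, 8 were tested and 3 were lower in osteosarcoma, namely the gap junction protein GJA1 (connexin 43; -2.73, SE 0.36, limma adjusted p = 0.00112), the carbonic anhydrase CA12 (-2.11, SE 0.52, adjusted p = 0.0193) and the phosphate transporter SLC20A2 (-0.65, SE 0.19, adjusted p = 0.0391), whose other probe sets gave -1.18 to +0.21. In the list of BMP and Wnt inputs, which act upstream of RUNX2, DLX5 and MSX2, the Wnt coreceptors LRP5 (+1.73, adjusted p = 0.0265) and LRP6 (+0.86, adjusted p = 0.0457) were higher and the Wnt inhibitor DKK1 (-3.42, SE 1.05, adjusted p = 0.0445) and the BMP mediator SMAD5 (-1.16, adjusted p = 0.0202) lower, of 8 tested. DKK1 ran from 3.84 in OSCA71 to 10.66 in OSCA20, so it was not low in every line. None of the 3 tested osteoclast and coupling genes passed.

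Markers of other mesenchymal paths were mixed. Of 7 chondrocyte genes tested, HAPLN1, a cartilage link protein that binds hyaluronan to proteoglycan, was 5.40 units higher in osteosarcoma (SE 0.33, limma adjusted p = 4.41e-06), with lines from 8.54 to 10.29 against 3.63 to 4.96. The cartilage factors SOX5 (-1.87, adjusted p = 0.00424) and SOX6 (-1.40, adjusted p = 0.0126) were lower, although the second probe sets gave -0.28 and +0.09. Of 4 adipocyte and muscle genes tested, ADIPOQ was lower (-0.73, adjusted p = 0.0168). Of 5 endothelial markers tested, ROBO4 was higher in osteosarcoma (+0.46, adjusted p = 0.0265), its second probe set giving -0.22, and 4 of the 11 endothelial markers lay below the median on all 10 hemangiosarcoma arrays. No tested leukocyte or myeloid marker passed.

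**Figure D5:**
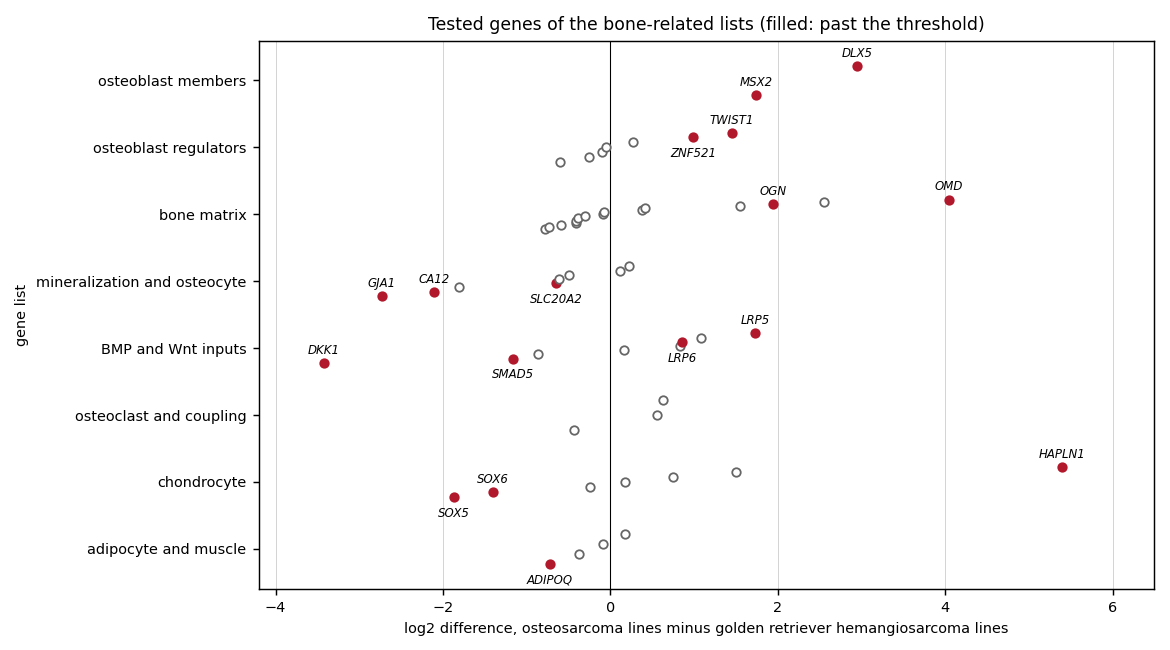
Difference in log2 level between the 5 osteosarcoma and the 6 golden retriever hemangiosarcoma lines (horizontal axis) for every tested gene of 8 lists (rows). Each point is 1 gene, offset vertically within its row for legibility, and filled, named points passed an adjusted p of 0.05 in limma; HAPLN1 at +5.40 and OMD at +4.04 lie farthest to the right and DKK1 at -3.42 farthest to the left.

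Against the hematoma cultures few genes of these lists passed. MSX1, the paralog of MSX2, was higher in osteosarcoma (+1.30, SE 0.27, limma adjusted p = 0.0382), HAPLN1 was higher (+5.16, SE 0.49, adjusted p = 0.00356) and GJA1 was lower (-1.52, SE 0.35, adjusted p = 0.0482). MSX1 (at most 4.59) and HAPLN1 (at most 5.56) lay below the array median in every hematoma culture, so both entered through osteosarcoma and were selected for that difference. None of 15 bone matrix genes passed, and their median difference was -0.06, beside +0.01 over all probe sets tested. Against the leukemias and lymphomas all 15 bone matrix genes passed and were higher in osteosarcoma, with a median difference of +6.60 beside -0.13 over all, led by COL5A2 (+8.55), COL1A2 (+8.04) and COL1A1 (+7.82). Of the osteoblast regulators 3 of 7 tested were higher there (ZNF521, ID1 and TWIST1), as were 5 of 8 mineralization genes and 4 of 7 BMP and Wnt genes, among them BMP2 (+4.05). In the osteoclast list CTSK was higher (+3.71) and ACP5 lower (-3.01) of 3 tested, and in the chondrocyte list HAPLN1 (+5.29) and SOX9 (+0.91) were higher of 7. The counts of higher genes stand beside 10.1% of all probe sets called higher, in a comparison where culture and tumor type cannot be told apart. Genes that entered through the osteosarcoma arrays alone, such as HAPLN1 (at most 4.95 on the lymphoid arrays), were bound to be higher. The counts are therefore not read as a result about the lists.

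Between hemangiosarcoma and hematoma no gene of these lists passed. Between the lymphomas 4 genes each were tested of the osteoblast regulators, bone matrix, mineralization, BMP and Wnt, and adipocyte and muscle lists, and 0 passed in limma. Of the 3 osteoclast and coupling genes tested there, CTSK, the collagen-degrading protease of osteoclasts, was higher in diffuse large B cell lymphoma (+1.49, SE 0.45, limma adjusted p = 0.0324). Of the 4 chondrocyte genes tested, COMP, a cartilage matrix protein, was lower (-1.69, SE 0.32, limma adjusted p = 0.00281), with its other probe sets between -3.04 and -0.05.

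The genes whose levels most resembled those of each member were read as a description over all 34 arrays, which mix cultured and primary cells. DLX5 was most like HAPLN1 (Pearson r = 0.88 over 34 arrays and 0.95 over the 18 cultured arrays) and CBR3 (0.87 and 0.91). MSX2 was most like AHNAK2 (0.89 and 0.82) and ST6GAL2 (0.88 and 0.83). ALPL was most like NPNT (0.86 and 0.80) and OSR2 (0.83 and 0.73), and RUNX2 like FLI1 (0.88 and 0.80) and C24H20orf194 (0.84 and 0.76). The partners were chosen over arrays that include the 18 cultured ones, so the second value is not independent of the first. PHEX was most like ASIC5 and KLHL14, each at 0.89 over 34 arrays, but at -0.28 and -0.04 over the cultured arrays, where PHEX was low on most. BGLAP was most like VAMP2 (0.87 and 0.65) and RNF123 (0.87 and 0.48), SPP1 like SLC2A9 (0.66 and 0.80) and RDH12 (0.65 and 0.60), and IBSP like HDX (0.63 and 0.58) and SEC16B (0.61 and 0.65). Partners were picked as the highest r among 15115 genes, which raises r by selection alone. IBSP also lay below its array's median on all 34 arrays, so its partners are not read as a likeness.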

How the data were processed

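Total RNA of 34 canine samples was hybridized to Affymetrix Canine_2 arrays. Per the submitters' processing notes, the authors computed the deposited log2 values with RMA in affy (versions not given in the sources used here). Whether all arrays went through 1 run is not given in the sources used here. Values ran from 2.03 to 14.98, and no further normalization was applied. The 175 control probe sets were left out, leaving 42860. Gene names came from the platform annotation; 439 probe sets with several symbols and 13167 with none were not named. Array intensities carry no read depth, so the number of arrays limits the precision.

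Groups came from the sample labels, and no 2 arrays were identical (highest correlation 0.985). The study states that 1 sample was run on 2 chips, and that sample is not marked in the labels. Comparisons used limma 3.58.1 in R 4.3.3 (lmFit, eBayes) with Benjamini-Hochberg adjustment, at 0.05, 0.1 (hemangiosarcoma against hematoma) or 0.001 (osteosarcoma against lymphoid), tested on simulated data. The members and lists were chosen with earlier results of these data known. All members were named, each by its probe set with the highest mean over the 34 arrays, and up to 4 genes per list with the largest change among those past the threshold. Alternatives were no filter, a stricter filter (above the median on 50% of the arrays), median centring, quantile normalization, an intensity trend with robust prior, all 34 arrays in 1 fit, all 10 hemangiosarcoma lines, other probe sets and leaving out each array. No filter with all 10 lines was added after seeing the data.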

Additional observations from a re-analysis of the deposited data

Results flagged for a closer look

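PHEX in the osteosarcoma line OSCA71, at 5.98, stood above the next line (4.23, OSCA20), a gap of 0.766 of the range of the 5 lines where Dixon's 95% critical value is 0.71. The second PHEX probe set also had OSCA71 highest, above the 2.97 to 3.40 of the other 4 lines. PHEX in the diffuse large B cell lymphoma Sally, at 6.08, stood below the other 5 tumors of its kind, the next being Kaycee at 7.64 (gap ratio 0.776, critical value 0.625), and Sally was also lowest on the second probe set, at 4.71. In all, 32 sets of values, 8 genes in 4 groups of 5 to 10 arrays, were examined and 2 stood out in this way, where chance marks about 1 in 20.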

How the results depend on the processing

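Over the alternatives, 802 values for single genes were counted as unchanged, 15 lost a call or its test and 6 gained a call. Another 13 moved by more than 1 SD between replicates, each with another probe set of RUNX2, ALPL or SPP1. Of the values tested in the main fit, 1 changed sign, the uncalled MSX2 difference between hemangiosarcoma and hematoma. It was -0.038 without Baxter, and -0.038 to 0.90 over all ways of leaving out 1 array. Members below the filter could change sign and still be counted as unchanged. With 1 array left out, PHEX ran from -0.50 to 0.12 between osteosarcoma and hemangiosarcoma and from -0.85 to 0.09 between osteosarcoma and hematoma. Between hemangiosarcoma and hematoma it ran from -0.80 to 0.11, and RUNX2 ran from -0.21 to 0.06 between the lymphomas. The gains were RUNX2, ALPL and BGLAP against hemangiosarcoma, without the filter and, with all 10 hemangiosarcoma lines and no filter, at limma adjusted p values of 0.00156, 0.00719 and 0.00784. With the stricter filter DLX5 was not tested against hemangiosarcoma, nor DLX5 and MSX2 against lymphoid tumors; the second MSX2 probe set was below the filter in the 3 osteosarcoma comparisons, as was the second PHEX probe set between the lymphomas.

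The count of probe sets called between osteosarcoma and hemangiosarcoma was 3619 and became 5454 with all 34 arrays in 1 fit, 6365 with all 10 hemangiosarcoma lines, 8753 with all 10 lines and no filter, and 2141 to 4940 when 1 array was left out. The fit of all 34 arrays also compared osteosarcoma with all 10 hemangiosarcoma lines, not only those of golden retrievers. Between osteosarcoma and hematoma it was 1096, with 3389 in 1 fit of all arrays and 43 to 2801 when 1 array was left out. Between hemangiosarcoma and hematoma it was 62, with 33 under the stricter filter, 181 in 1 fit and 7 to 200 when 1 array was left out. Between osteosarcoma and lymphoid tumors it was 4199, with 7466 in 1 fit, of which 3674 were higher and 3792 lower beside 2515 and 1684 in the fit of these 2 groups, and 3217 to 4548 when 1 array was left out. Between the lymphomas it was 4018, and 2978 to 4555 when 1 array was left out. The cause of these shifts was not tested. No paired analysis was possible because the labels give no replicate numbers that groups share. Dim probe sets below the array median limit what can be said of IBSP and RUNX2.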

Other observations

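The acute lymphoblastic leukemia Rascal, a group of 1 array, held the highest SPP1 (9.61) and ALPL (7.24) levels of the series and a BGLAP level of 6.14 within the lymphoid range. Its RUNX2 level was 5.59, and its DLX5 (3.93), MSX2 (4.12), IBSP (3.41) and PHEX (3.92) levels lay within the ranges of the other leukemias and lymphomas. As a single array it entered no comparison of its own. The ALPL peak rested on the main probe set, since the second read 5.09 in Rascal and up to 6.34 in diffuse large B cell lymphoma.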
